A study of Mus musculus with 18 samples.

Results

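The nuclear factor I (NFI) family was described in single nuclei of the mouse embryonic forebrain. Its members are Nfia, Nfib, Nfic and Nfix, taken by their gene symbols, and they are 4 of the 55335 genes in the deposited matrices. The forebrains came from C57BL/6J embryos at embryonic day 14 (E14) of a line with a frameshift allele of Myt1l, a zinc finger transcription factor of neurons, listed as strain MYT1L S710fsX. WT embryos carried no mutant allele, Het embryos carried the allele on 1 chromosome and KO embryos on both. There were 3 embryos per genotype, each a replicate. Every embryo had 2 libraries, titled run 1 and run 2, whose counts were summed. The labels do not say what a run was. Among the nuclei kept, only 155 barcodes were shared by the 2 runs of an animal. The genotypes came from the sample titles, since a separate genotype tag in run 1 read WT for all 9 libraries. The allele was present in every cell of the embryo from conception.

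NFI proteins bind DNA as dimers to a palindromic site and can activate or repress their targets. In the developing cortex Nfia, Nfib and Nfix are known from radial glia, the stem cells that line the ventricle, and from the neurons of the deep cortical layers. They promote the change from dividing radial glia to intermediate progenitors and neurons, and later the start of glial development. Loss of Nfia, Nfib or Nfix in mice is known to enlarge the brain or to prevent the corpus callosum from forming, whereas Nfic is best known for tooth root formation.

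After filtering, 194373 nuclei remained, 14780 to 26079 per animal with 42757865 to 73780479 unique molecular identifiers (UMIs, the counted RNA molecules). The median nucleus held 3495 UMIs in run 1 and 2316 in run 2. Levels are given as CPM, the UMIs of a gene per 1000000 UMIs of that cell class in that animal, as mean ± SD over animals. Nuclear RNA is largely unspliced, so longer genes collect more UMIs, and levels of different genes were compared only per kilobase (kb) of gene body. Nuclei were grouped into 31 clusters without using the members, although other genes that overlap them in the genome were not barred. In all, 28 clusters had at least 20 nuclei in every animal. Of these, 24 took the name of a cell class from marker genes, in 8 classes, and 4 stayed unnamed. Myt1l RNA was higher in KO than in WT excitatory neuron-like nuclei, with WT at 2068 ± 150 CPM, Het at 2357 ± 131 and KO at 2674 ± 167 (n = 3 each, log2 fold change 0.40 ± 0.082 SE, adjusted p = 0.0304 by the edgeR quasi-likelihood test). A frameshift need not remove the transcript, so the RNA does not check the labels.

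The members differ widely in the length of their genes. In GRCm38, the assembly also called mm10, Nfib spanned 415.6 kb (chromosome 4, 82290173 to 82705750, minus strand) and Nfia 346.1 kb (chromosome 4, 97772734 to 98118874, plus strand). Nfix spanned 100.5 kb (chromosome 8, 84699876 to 84800344, minus strand) and Nfic 59.5 kb (chromosome 10, 81396186 to 81455635, minus strand). Each overlaps other annotated genes. Nfia overlaps E130114P18Rik on the other strand. Nfib overlaps Gm11267 on its own strand and Gm11266, Gm11268, Gm11269 and n-R5s188 on the other. Nfic overlaps Mir1191b on its own strand and Gm16104 on the other, and Nfix overlaps Lyl1 and G430095P16Rik on the other. The sources used here do not say whether counting used strand, so reads of a member and of a gene that overlaps it may not be separable.

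MYT1L and its relatives bind DNA with the core AAGTT, so the bases upstream of the members' start sites are shown for that core. The sequences are from RefSeq (GRCm38.p6) and hold the 250 bases before a start, written 5′ to 3′ in the direction of the gene, with the core in capitals wherever it was found on either strand. RefSeq starts were matched for 3 of the 4 members, with 4 starts for Nfix. The Nfia start lies upstream of the gene body given above, and the Nfix and Nfic starts lie within theirs.
Nfia, chr4:97581693-97581942, plus strand: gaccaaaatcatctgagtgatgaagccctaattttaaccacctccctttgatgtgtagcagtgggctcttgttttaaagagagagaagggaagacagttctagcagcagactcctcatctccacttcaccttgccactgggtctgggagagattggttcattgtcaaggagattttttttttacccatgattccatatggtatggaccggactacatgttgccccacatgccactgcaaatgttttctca
Nfix, chr8:84780083-84780332, minus strand: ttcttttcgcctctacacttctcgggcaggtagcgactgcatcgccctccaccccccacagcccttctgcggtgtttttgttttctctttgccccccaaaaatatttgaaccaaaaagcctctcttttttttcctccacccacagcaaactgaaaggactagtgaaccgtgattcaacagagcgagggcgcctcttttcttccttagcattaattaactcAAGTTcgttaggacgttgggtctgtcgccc
Nfic, chr10:81427174-81427423, minus strand: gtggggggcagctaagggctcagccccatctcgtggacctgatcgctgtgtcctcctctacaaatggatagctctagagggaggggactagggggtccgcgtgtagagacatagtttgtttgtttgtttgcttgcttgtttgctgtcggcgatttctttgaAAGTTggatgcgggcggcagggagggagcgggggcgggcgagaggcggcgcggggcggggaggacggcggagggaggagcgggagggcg
The core began 30 bases before this Nfix start and 89 bases before the Nfic start, and the letters AAGTT or their reverse complement AACTT did not occur in the Nfia window. In all, 2 of the 6 member windows held the core, beside 11607 of 32851 windows of the same length genome-wide (35.3%). A match of 5 letters is a description of the sequence and not a bound site.

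As class means, Nfia, Nfib and Nfix were high in radial glia-like and excitatory lineage nuclei and low in inhibitory neuron-like nuclei. Single clusters differed. The excitatory neuron-like cluster 3 held 1202 CPM of Nfia and 1727 of Nfib, and the inhibitory neuron-like cluster 20 held 2592 of Nfib. In radial glia-like nuclei Nfia measured 3430 ± 153 CPM (n = 9 animals) and Nfib 3399 ± 145. In excitatory intermediate progenitor-like nuclei, named for the daughters of radial glia that make excitatory neurons, Nfia measured 4031 ± 225 CPM and Nfib 3977 ± 243. In excitatory neuron-like nuclei Nfia measured 3049 ± 123 CPM and Nfib 5173 ± 279. In inhibitory neuron-like nuclei the values were 297 ± 55.1 for Nfia and 674 ± 69.0 for Nfib. Excitatory neuron-like nuclei thus held 10.4 times as much Nfia, 7.70 times as much Nfib and 9.53 times as much Nfix as inhibitory neuron-like nuclei, and each of these differences was present in 9 of 9 animals. Nfic did not share this difference, at 13.5 ± 1.46 CPM in the excitatory and 15.0 ± 1.54 in the inhibitory class, and was lower in the excitatory class in all 9 animals. These levels describe the classes and were not tested, since the clusters were built from the same nuclei.

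**Figure D1:**
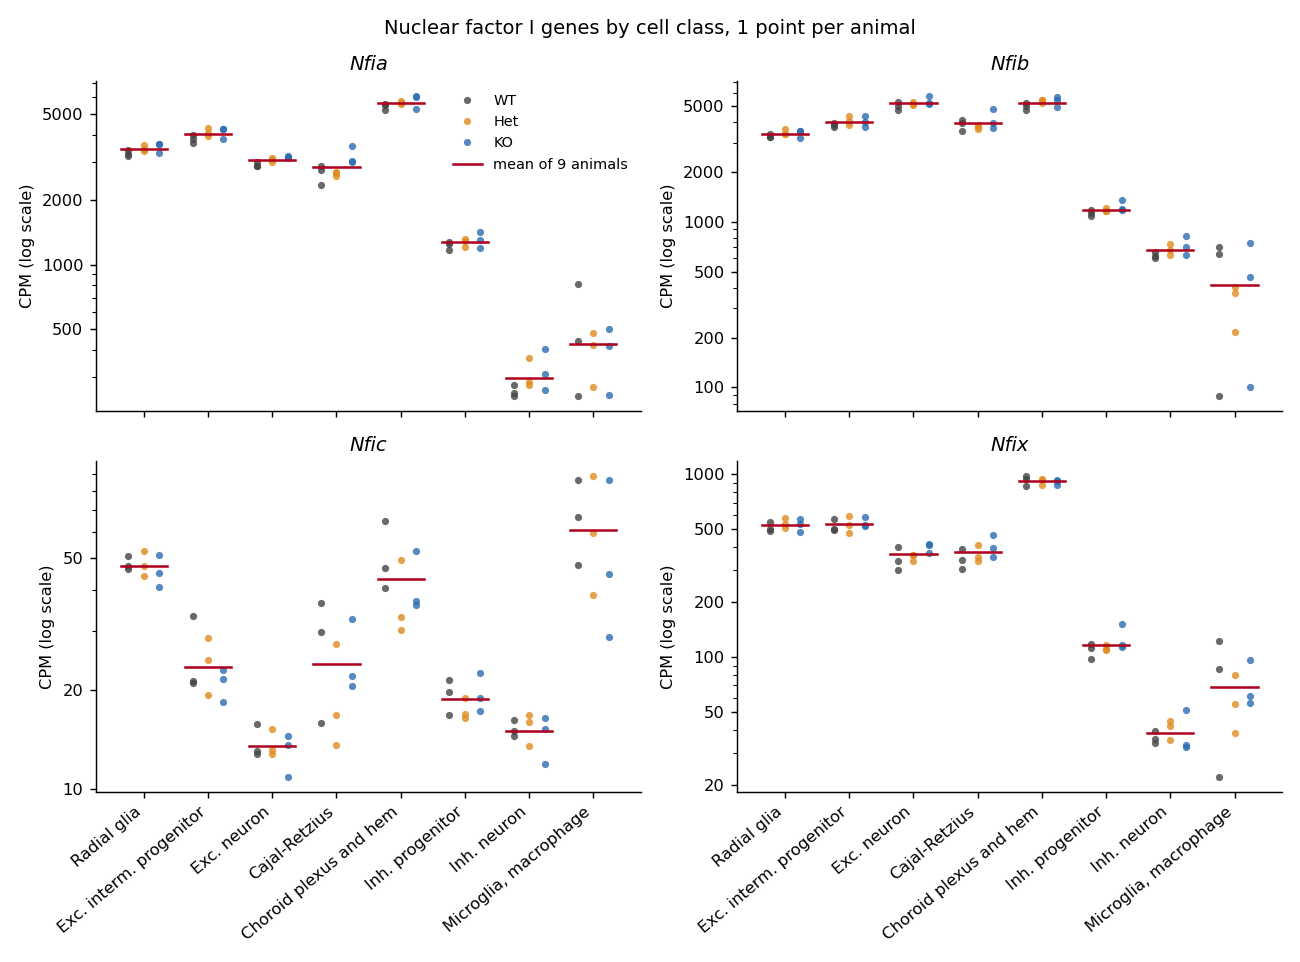
Level of each NFI gene by cell class, in CPM on a log axis, with 1 point per animal colored by genotype and a red line at the mean of the 9 animals. Nfia, Nfib and Nfix sit highest in choroid plexus and hem, radial glia, excitatory lineage and Cajal-Retzius classes and lowest or next to lowest in inhibitory neurons, whereas Nfic is highest in radial glia, hem and microglia.

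The plot of levels by cell class also shows the order of the classes for each member. Nfia was highest in choroid plexus and hem-like nuclei, the dorsal midline tissue that secretes Wnt signals, at 5634 ± 286 CPM. Excitatory intermediate progenitor-like, radial glia-like, excitatory neuron-like and Cajal-Retzius-like nuclei followed, the last at 2837 ± 347 CPM. Each class exceeded the next in 9 of 9 animals, except that excitatory neuron-like nuclei exceeded Cajal-Retzius-like nuclei, the early neurons of the cortical surface, in 8 of 9. Inhibitory progenitor-like nuclei came next at 1266 ± 73.7 CPM, then microglia and macrophage-like nuclei at 425 ± 176 and inhibitory neuron-like nuclei, and these last classes were ordered this way in 6 of 9 animals.

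Nfib was highest in choroid plexus and hem-like nuclei at 5224 ± 304 CPM and in excitatory neuron-like nuclei, and the former was higher in only 6 of 9 animals. Excitatory intermediate progenitor-like nuclei and Cajal-Retzius-like nuclei (3920 ± 379 CPM) were ordered this way in 6 of 9 animals. Radial glia-like, inhibitory progenitor-like (1183 ± 75.3 CPM), inhibitory neuron-like and microglia and macrophage-like nuclei (415 ± 248 CPM) followed. The highest mean was 12.6 times the lowest.

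Nfix had the widest range of the members, 23.8 times from the highest to the lowest class. It measured 918 ± 37.0 CPM in choroid plexus and hem-like nuclei, 534 ± 41.0 in excitatory intermediate progenitor-like nuclei and 528 ± 33.2 in radial glia-like nuclei. The last pair was not ordered, with the intermediate progenitors higher in 5 of 9 animals. Cajal-Retzius-like nuclei (374 ± 48.7 CPM) and excitatory neuron-like nuclei (366 ± 38.7 CPM) were likewise ordered in only 6 of 9 animals. Inhibitory progenitor-like nuclei held 116 ± 14.2 CPM, microglia and macrophage-like nuclei 68.7 ± 30.8, from 1 to 10 UMIs per animal, and inhibitory neuron-like nuclei 38.6 ± 6.49.

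Nfic was highest in the non-neuronal classes and in radial glia. Microglia and macrophage-like nuclei held 60.7 ± 22.4 CPM, from only 3 to 8 UMIs per animal, and exceeded radial glia-like nuclei (47.4 ± 3.73 CPM) in 6 of 9 animals. Choroid plexus and hem-like nuclei held 43.4 CPM (30.4 to 64.7 over the animals). In radial glia-like nuclei 319 to 528 UMIs per animal stood behind the value. Cajal-Retzius-like nuclei (23.9 ± 8.08 CPM), excitatory intermediate progenitor-like nuclei (23.4 ± 4.80) and inhibitory progenitor-like nuclei (18.7 ± 2.14) were not ordered in all animals. The mean of the highest class was 4.50 times that of the lowest, the excitatory neuron-like nuclei.

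Per kb of gene body, the ratio of Nfib to Nfia was higher in excitatory and inhibitory neuron-like nuclei than in the progenitor classes. In radial glia-like nuclei Nfia stood at 9.91 CPM per kb, Nfib at 8.18, Nfix at 5.25 and Nfic at 0.796. In excitatory neuron-like nuclei Nfib stood at 12.4 CPM per kb, Nfia at 8.81, Nfix at 3.64 and Nfic at 0.227. The log2 ratio of Nfib to Nfia per kb was -0.28 ± 0.02 in radial glia-like and -0.28 ± 0.05 in excitatory intermediate progenitor-like nuclei, with Nfib above Nfia in 0 of 9 animals in either class. It was 0.50 ± 0.05 in excitatory neuron-like nuclei, with Nfib above Nfia in 9 of 9 animals. In the inhibitory lineage the ratio was -0.36 ± 0.05 in progenitor-like nuclei (0 of 9 animals) and 0.93 ± 0.14 in neuron-like nuclei (9 of 9). Cajal-Retzius-like nuclei stood at 0.21 ± 0.10 (9 of 9) and choroid plexus and hem-like nuclei at -0.37 ± 0.06 (0 of 9). All members together took 0.740% of the UMIs of radial glia-like nuclei, 0.860% in excitatory neuron-like nuclei, 1.18% in choroid plexus and hem-like nuclei and 0.102% in inhibitory neuron-like nuclei. The sign of the ratio depends on the length taken for Nfia. With the Nfia body begun at the upstream RefSeq start, 536.9 kb in all, the ratio became 0.36 in nuclei like radial glia, 0.35 in those like excitatory intermediate progenitors and 0.27 in those like inhibitory progenitors, so that Nfib stood above Nfia there too, in 9 of 9 animals each. The difference between classes does not depend on length. The log2 ratio was higher in excitatory neuron-like than in radial glia-like nuclei by 0.77 ± 0.06, and higher in inhibitory neuron-like than in inhibitory progenitor-like nuclei by 1.29 ± 0.17, in 9 of 9 animals each.

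Between progenitors and neurons the members differed in different directions. Excitatory neuron-like nuclei held 1.52 times as much Nfib as radial glia-like nuclei (9 of 9 animals), but 0.889 times as much Nfia, 0.691 times as much Nfix and 0.284 times as much Nfic, each lower in all 9 animals. Against excitatory intermediate progenitor-like nuclei the ratios were 1.30 for Nfib (higher in 9 of 9 animals), 0.757 for Nfia, 0.683 for Nfix and 0.583 for Nfic, the last 3 lower in all animals. Single clusters went against the class means. Beside 3430 CPM of Nfia in radial glia-like nuclei, clusters 2, 4 and 6 held 4062, 3547 and 3555. Clusters 3, 21 and 26 held less, at 1202, 3101 and 1824. Nfib in cluster 3 (1727 CPM) lay below radial glia-like nuclei, and Nfix in cluster 21 (629 CPM) above them. Between radial glia-like and intermediate progenitor-like nuclei Nfia and Nfib differed alike, each 1.17 times as high in the latter and higher in 9 of 9 animals, whereas Nfic was 0.488 times as high. In the inhibitory lineage the class mean of every member was lower in neurons. Progenitor-like nuclei held 4.31 times as much Nfia and 1.76 times as much Nfib as neuron-like nuclei. The ratio was 1.24 for Nfic and 3.02 for Nfix, and each difference was present in all 9 animals. For Nfib the inhibitory neuron-like cluster 20 went against the class mean, at 2592 CPM beside 1183 in inhibitory progenitor-like nuclei. Cluster 9 (1150 CPM) was not ordered against the progenitor-like cluster 24 (1166 CPM, higher in 4 of 9 animals). The remaining inhibitory neuron-like clusters held 728 CPM of Nfib or less.

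**Figure D2:**
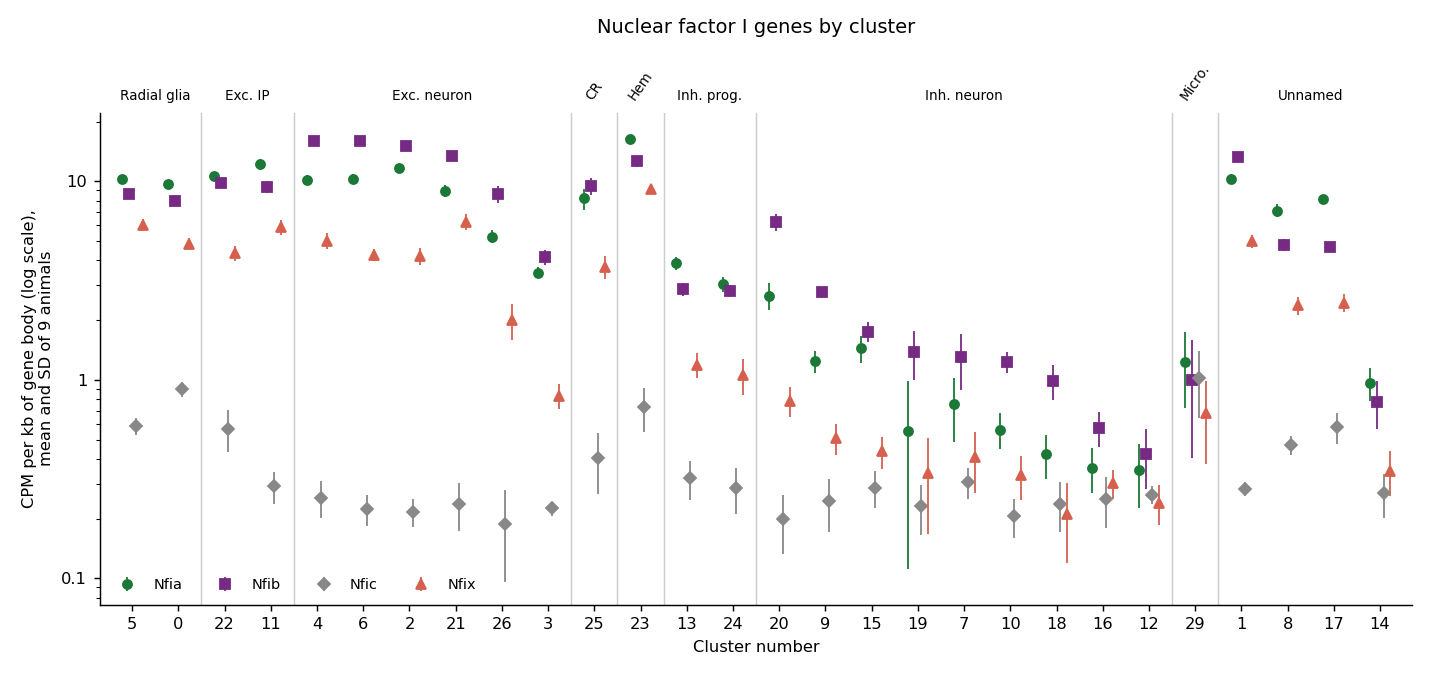
Level of each NFI gene in 28 clusters, in CPM per kb of gene body on a log axis, as mean and SD of 9 animals, with clusters grouped by class. Nfib (squares) stands above Nfia (circles) in excitatory and inhibitory neuron clusters and, at the Nfia length of 346.1 kb used here, below it in radial glia and intermediate progenitor clusters, an order that turns with a length of 536.9 kb, and clusters 3 and 26 are the lowest of the excitatory neuron clusters for Nfia, Nfib and Nfix.

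Within the excitatory neuron-like class the clusters fell into a high and a low group, as the plot of levels by cluster shows. Clusters 4 and 6, both with Abcc8 and Cntn2 among their leading genes, held the most Nfib of all 28 clusters, 6646 and 6634 CPM, and were not ordered (4 of 9 animals). Cluster 2, led by Rgs6, Hs3st4 and Sla, had the highest Nfia of the class, 4062 CPM. Cluster 21, led by Slit3 and Nrip3, had the highest Nfix of the class, 629 CPM. Cluster 26, led by Il1rapl2, Nr4a2 and Hs3st2, held 1824 CPM of Nfia, 3578 of Nfib and 201 of Nfix. Cluster 3, led by Tafa1, Tfap2d and Sim1, held the least, 1202 CPM of Nfia, 1727 of Nfib and 83.4 of Nfix. Cluster 2 exceeded cluster 3 by 3.38 times for Nfia, 3.61 times for Nfib and 5.08 times for Nfix, in 9 of 9 animals each. Nfic in cluster 2 was 0.961 times its level in cluster 3 and higher in 2 of 9 animals. The name of cluster 3 rests on 4 of 10 excitatory neuron markers, whose summed level in its WT nuclei was 3175 to 3182 CPM beside 7135 to 7954 in the class as a whole.

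Among the progenitors, the cycling radial glia-like cluster 0 held more Nfic than the non-cycling cluster 5 (53.6 against 34.9 CPM) and less Nfix (488 against 605 CPM). The intermediate progenitor-like clusters repeated this, with the cycling cluster 22 at 33.8 CPM of Nfic and 436 of Nfix, and cluster 11 at 17.3 and 591. The unnamed cluster 1, whose leading genes include Neurod1, Unc5d and Sstr2, held 3563 CPM of Nfia, 5515 of Nfib and 503 of Nfix. Its log2 ratio of Nfib to Nfia per kb was 0.37 ± 0.05 beside -0.38 ± 0.05 in cluster 11, higher by 0.75 ± 0.08 in 9 of 9 animals. The unnamed cluster 14, whose Myt1l level was 1750 ± 280 CPM beside 1631 ± 143 in inhibitory neuron-like nuclei, held only 335 ± 62.7 CPM of Nfia and 321 ± 86.8 of Nfib, and its ratio of -0.35 ± 0.24 (Nfib above Nfia in 1 of 9 animals) was close to those of the progenitor classes.

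Among inhibitory neuron-like clusters the members varied with cluster identity. Cluster 20, led by Prox1 and Sp8, transcription factors of interneurons from the caudal and lateral eminences, held the most Nfia, Nfib and Nfix of the class, 916, 2592 and 78.8 CPM. Cluster 9, led by Lhx6 and Sst, which mark interneurons of the medial eminence, held 430 CPM of Nfia and 1150 of Nfib. Cluster 10, led by Drd2 and Six3, held 195 and 510 CPM. Cluster 12, led by Rarb, Ebf1 and Tac1, genes of striatal projection neurons, held the least Nfia and Nfib of all 28 clusters, 121 and 176 CPM. The inhibitory clusters kept 12.2 to 18.1 CPM of Nfic apart from cluster 20, at 11.8.

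Across the 28 clusters Nfia and Nfix had the most similar levels (Pearson r = 0.97, Spearman rho = 0.95), followed by Nfia with Nfib (0.94 and 0.91) and Nfib with Nfix (0.92 and 0.89). Nfic was unlike the others, with r of 0.33 to Nfia, 0.10 to Nfib and 0.37 to Nfix. Clusters are not independent points, since they share animals and libraries. Among 7243 genes that averaged 20 CPM or more, with the members left out, Gm11266 was closest to Nfia (r = 0.963), Nfib (0.928) and Nfix (0.983). Gm11266 lies on the opposite strand within the gene body of Nfib. The next for Nfia were E130114P18Rik (0.912), which overlaps Nfia on the other strand, and Cecr2 (0.911), a chromatin remodeling factor. For Nfib they were Apcdd1, a Wnt inhibitor, and then Cecr2 (0.886), and for Nfix E130114P18Rik (0.904) and 2610035D17Rik (0.902). Nfic was closest to Tmem243 (0.912), Lhfpl2 (0.911) and Zfp36l1 (0.909), an RNA-binding protein that promotes mRNA decay. Without strand in the counting, the likeness of Gm11266 to Nfib and of E130114P18Rik to Nfia cannot be told apart from shared reads.

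The comparison of KO with WT asks how loss of MYT1L changed the members in each class. Point estimates for Nfia, Nfib and Nfix were mostly above 0 and small, and by class none was called by edgeR unless the animals were paired or the filter on low counts was dropped. A gene was called when its p, adjusted over all genes of the class by the Benjamini-Hochberg method, was under 0.05 and its log2 fold change was above 0.2 or below -0.2. In 30 tests of a member in a class, 0 were called by edgeR and by DESeq2, beside 0.344% of all gene and class pairs called by edgeR (344 of 100055). The share that DESeq2 called is not given. Without the filter on low counts 2 members were called, beside 0.435% of all pairs. The lowest adjusted p was 0.281, 5 of the 30 had an unadjusted p under 0.05, and 20 estimates were above 0 and 10 below. The share of all genes with an unadjusted p under 0.05 is not given, so such counts, here and below, are not read as an excess. Nfia was higher in 7 of 8 classes, Nfib in 7 of 8 and Nfix in 6 of 7, whereas all 7 estimates of Nfic were below 0. Of all genes tested in a class, 47.7 to 50.8% had an estimate above 0.

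In excitatory neuron-like nuclei the level of Nfia was 2858, 2995 and 2885 CPM in WT, 3129, 3087 and 2995 in Het, and 3175, 3197 and 3123 in KO. Every KO animal was above every WT animal, as for 8.67% of the 18763 genes tested in this class, and Nfia was the only member apart in this way. The log2 fold change of KO against WT was 0.14 ± 0.059 (SE, adjusted p = 0.281). With the animals paired by replicate number (the replicate block), it was 0.14 with an adjusted p of 0.0394, still short of the fold threshold. In run 1 alone WT averaged 3039 ± 42.3 and KO 3201 ± 200 CPM, and in run 2 alone 2879 ± 89.1 and 3148 ± 93.1.

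Nfix in the same nuclei was 299, 402 and 335 CPM in WT, 336, 364 and 361 in Het, and 409, 415 and 372 in KO. The WT animals spread widely, and WT 2 lay within the KO range. The log2 fold change of KO against WT was 0.23 ± 0.10 (adjusted p = 0.336) and, with the replicate block, 0.24 ± 0.066 (adjusted p = 0.0298). That made Nfix the 1 member called in a class with the block, beside 1.63% of all gene and class pairs called that way, 7.49% of the genes of excitatory neuron-like nuclei (1405 of 18763) and 1.72% of them without the block. Without a filter on low counts Nfix was called too (0.23, adjusted p = 0.0491), beside 2.02% of genes. Leaving out a single animal, without the block, gave 0.13 (without WT 1) to 0.37 (without WT 2), with adjusted p of 0.0784 at the lowest. With the 6 excitatory clusters held at fixed weights, the difference was 0.15 and not called. Run 1 averaged 368 ± 33.7 in WT and 448 ± 47.9 CPM in KO, and run 2 339 ± 58.5 and 382 ± 21.7.

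Nfib in these nuclei was 4692, 5277 and 4971 CPM in WT, 5162, 5294 and 5064 in Het, and 5155, 5732 and 5209 in KO. The groups overlapped (log2 fold change 0.13 ± 0.074, adjusted p = 0.471; with the block 0.0726). Nfic averaged 13.8 ± 1.61 CPM in WT and 13.0 ± 1.92 in KO (-0.06 ± 0.12, adjusted p = 0.878). Of the summed markers of other classes, those of inhibitory progenitors were lower in every KO than in every WT animal of this class, at 19.3 to 23.7 CPM in WT and 17.5 to 18.8 in KO, and their part in the differences above was not tested. The others overlapped. Radial glia markers ran from 149 to 164 CPM in WT and 146 to 162 in KO, and inhibitory neuron markers from 165 to 261 and 144 to 322, and excitatory intermediate progenitor markers from 95.3 to 105 and 94.6 to 102.

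In inhibitory neuron-like nuclei the level of Nfia was 274, 245 and 252 CPM in WT, 369, 274 and 284 in Het, and 406, 308 and 262 in KO. KO 1 and Het 1 were the highest, and KO 3 lay within the WT range. The log2 fold change was 0.37 ± 0.14 (adjusted p = 0.773, with the block 0.0528), and the gene was called only where no filter on low counts was used (adjusted p = 0.00236), a fit that called 0.283% of all genes of the class. Leaving out a single animal gave 0.18 (without KO 1) to 0.52 (without KO 3). Nfib was 601, 657 and 617 CPM in WT and 820, 700 and 629 in KO (0.23 ± 0.099, adjusted p = 0.804). Nfix was 39.6, 35.6 and 34.1 CPM in WT and 51.7, 32.9 and 32.2 in KO (0.12 ± 0.16), with the level of KO 1 above the rest. In this class 0.0160% of genes were called, and 0.761% with the block. Excitatory neuron markers, which the members accompany, summed to 834 to 875 CPM in WT nuclei, 833 to 1052 in those of Het and 872 to 1162 in those of KO, and their part in the difference was not tested. The effect of KO was compared between excitatory and inhibitory neuron-like nuclei directly. For Nfia the difference of the log2 fold changes was -0.20 ± 0.25 (limma, adjusted p = 0.911), an interval of -0.70 to 0.30 at 2 SE to each side, and for Nfix it was 0.15 ± 0.26 (adjusted p = 0.943, interval -0.37 to 0.68). The intervals leave room for differences larger than either effect.

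In Cajal-Retzius-like nuclei Nfia was 2355, 2858 and 2763 CPM in WT, 2581, 2696 and 2658 in Het, and 3035, 3570 and 3014 in KO. Every KO animal was above every WT animal, as for 6.91% of genes in this class, with a log2 fold change of 0.27 ± 0.10 (adjusted p = 0.373, with the block 0.205). Nfib, Nfic and Nfix there had log2 fold changes of 0.11, -0.11 and 0.22, none called.

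In the progenitors no member was called. Several estimates were near those of excitatory neuron-like nuclei, which were 0.14 for Nfia, 0.13 for Nfib and 0.23 for Nfix. Radial glia-like nuclei held 3282, 3417 and 3205 CPM of Nfia in WT and 3620, 3623 and 3318 in KO, which overlapped (log2 fold change 0.10 ± 0.061, an interval of -0.02 to 0.23, adjusted p = 1.00). Nfib there differed by 0.07 ± 0.061, Nfix by 0.05 ± 0.079 and Nfic by -0.06 ± 0.095. In excitatory intermediate progenitor-like nuclei the log2 fold changes were 0.13 for Nfia, 0.09 for Nfib, -0.22 for Nfic and 0.07 for Nfix, and in inhibitory progenitor-like nuclei 0.10, 0.14, -0.01 and 0.19. Choroid plexus and hem-like nuclei gave 0.11, 0.13, -0.21 and -0.01. In these 4 classes 0% of all genes were called without the block. Microglia and macrophage-like nuclei, with 21 to 43 nuclei per animal, gave -0.41 ± 0.35 for Nfia and -0.21 ± 0.52 for Nfib, and Nfic and Nfix were too sparse there to be tested.

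**Figure D3:**
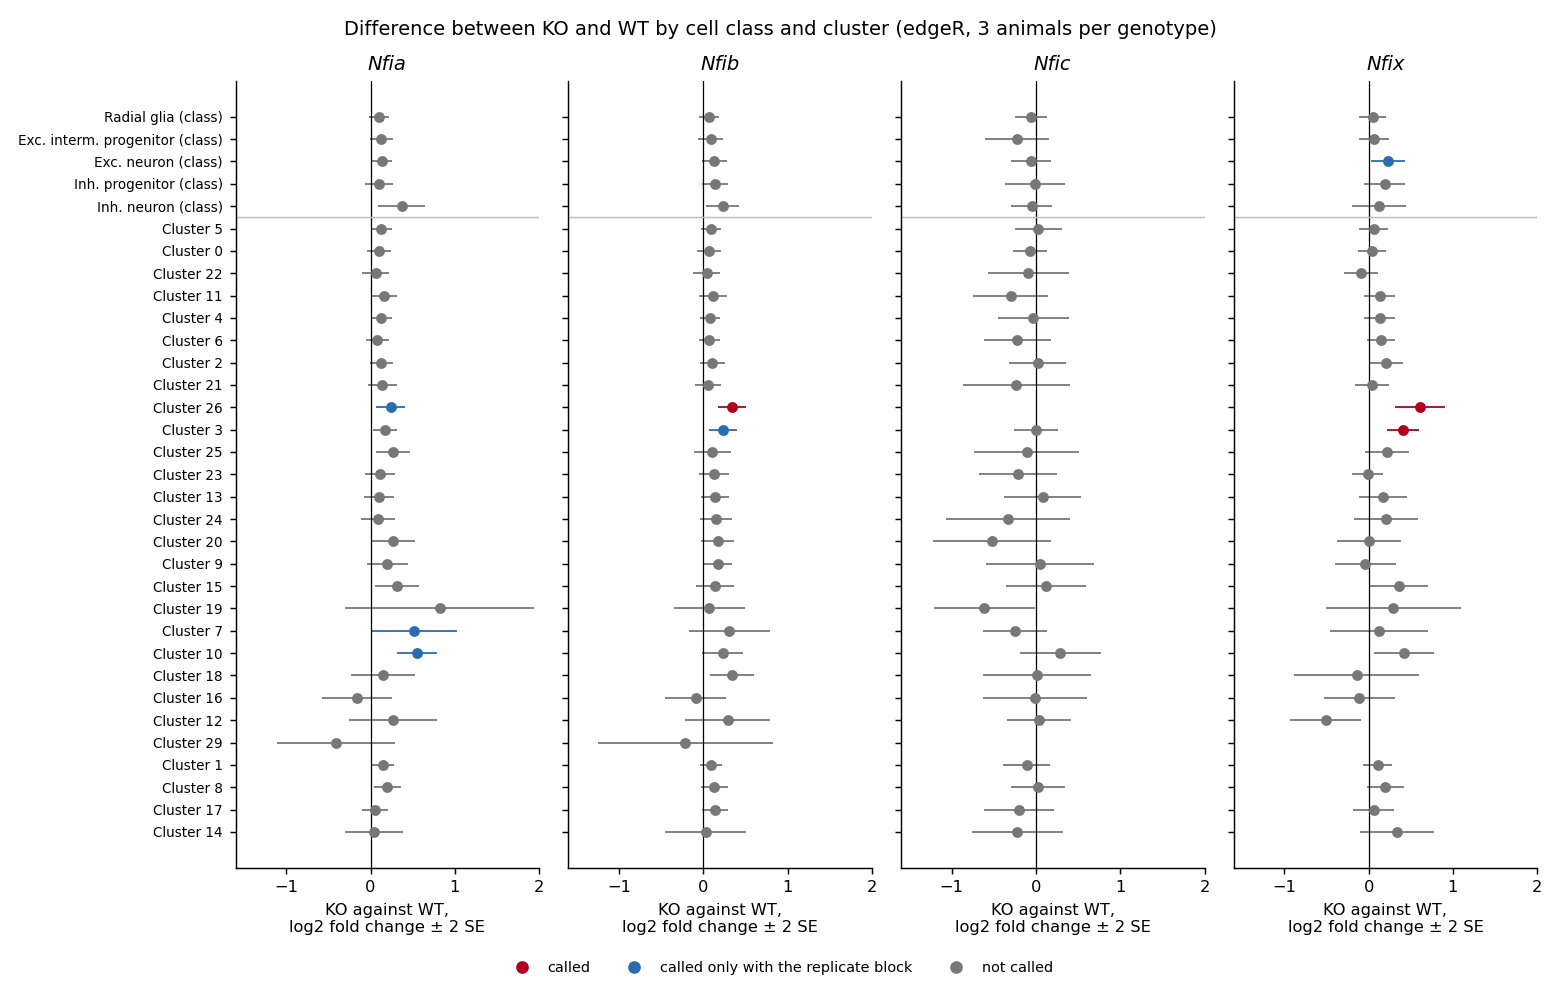
Log2 fold change of KO against WT for each NFI gene in the 5 largest progenitor and neuron classes (top) and 28 clusters, as the edgeR estimate with bars of 2 SE to each side, colored by whether it was called. With the filter on low counts and without the replicate block, the only calls are Nfib in cluster 26 and Nfix in clusters 3 and 26, and most estimates for Nfia and Nfib lie slightly above 0.

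By cluster, 3 of 109 member tests of KO against WT were called, all higher in KO and all in clusters 26 and 3. Across all genes and clusters 0.283% were called (867 of 306506). With the replicate block the members had 7 calls, beside 0.941% of all tests, and without the filter on low counts 6, beside 0.262%. In all, 83 of the 109 estimates were above 0, with Nfia higher in 26 of 28 clusters, Nfib in 26 of 28, Nfix in 21 of 27 and Nfic in 10 of 26. These share animals and are not independent.

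In cluster 26, with 107 to 239 nuclei per animal, Nfib was 3003, 3367 and 3223 CPM in WT, 3581, 3779 and 3498 in Het, and 3738, 4239 and 3779 in KO. Nfix was 151, 186 and 151 CPM in WT, 158, 217 and 225 in Het, and 222, 256 and 245 in KO. Nfia was 1705, 1774 and 1662 CPM in WT, 1705, 1903 and 1777 in Het, and 1830, 2048 and 2012 in KO. For each of these 3 members every KO animal was above every WT animal, as for 7.88% of genes with at least 5 CPM. Nfib rose by a log2 fold change of 0.34 ± 0.085 (adjusted p = 0.0322) and Nfix by 0.61 ± 0.15 (adjusted p = 0.0238). The estimate for Nfia was 0.24 ± 0.087 (adjusted p = 0.162), and it was called with the block (0.24, adjusted p = 0.0450). In this cluster 3.12% of all genes were called (226 of 7236), and 5.44% with the block.

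The 2 calls of cluster 26 were sensitive to single animals and to the tool. Without KO 2, WT 1 or WT 3 the call of Nfib was lost, with log2 fold changes of 0.26 to 0.38 over the 9 omissions, and without KO 2, KO 3, WT 1 or WT 3 that of Nfix, with 0.54 to 0.72. DESeq2 gave adjusted p of 0.0547 for Nfib and 0.0551 for Nfix, and without a filter on low counts the estimate for Nfib was 0.25 (adjusted p = 0.235). Summed radial glia markers ran from 81.2 to 117 CPM in WT and from 98.7 to 153 in KO, and excitatory neuron markers from 7858 to 8357 and 7825 to 9622. Inhibitory neuron markers ran from 91.6 to 298 CPM in WT and from 79.1 to 922 in KO, where the highest was KO 1. These ranges overlapped, and the part of the markers was not tested. Without KO 1 the log2 fold changes were 0.37 for Nfib (adjusted p = 0.0205) and 0.66 for Nfix (adjusted p = 0.0223). Run 2 alone gave 0.36 for Nfib (adjusted p = 0.0303) and 0.51 for Nfix (adjusted p = 0.0844). Run 1 had as few as 6 nuclei of this cluster in an animal and was not fitted alone.

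In cluster 3, with 1018 to 1772 nuclei per animal, Nfix was 71.0, 77.9 and 74.9 CPM in WT, 79.4, 82.3 and 73.1 in Het, and 108, 87.0 and 97.1 in KO. Nfib was 1580, 1664 and 1631 CPM in WT, 1799, 1698 and 1560 in Het, and 2070, 1727 and 1810 in KO. Every KO animal was above every WT animal for these 2 members, as for 8.15% of genes with at least 5 CPM, while Nfia overlapped. Nfix rose by a log2 fold change of 0.41 ± 0.094 (adjusted p = 0.0438), and 1.25% of all genes in this cluster were called. Leaving out a single animal gave 0.32 (without KO 1) to 0.46, and the call held only without Het 2. With only the WT and KO animals in the fit the adjusted p was 0.0574. Nfib had 0.23 ± 0.083 (adjusted p = 0.250) and was called with the block (adjusted p = 0.0498), beside 4.35% of genes. Run 1 alone gave 0.44 for Nfix and run 2 alone 0.40, neither called (adjusted p = 0.461 and 0.106). Summed excitatory neuron markers in cluster 3 ran from 3175 to 3182 CPM in WT and 3180 to 3411 in KO, which overlapped only slightly. Radial glia markers ran from 108 to 131 and 109 to 147, and inhibitory neuron markers from 282 to 402 and 250 to 505. The part of these markers was not tested.

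**Figure D4:**
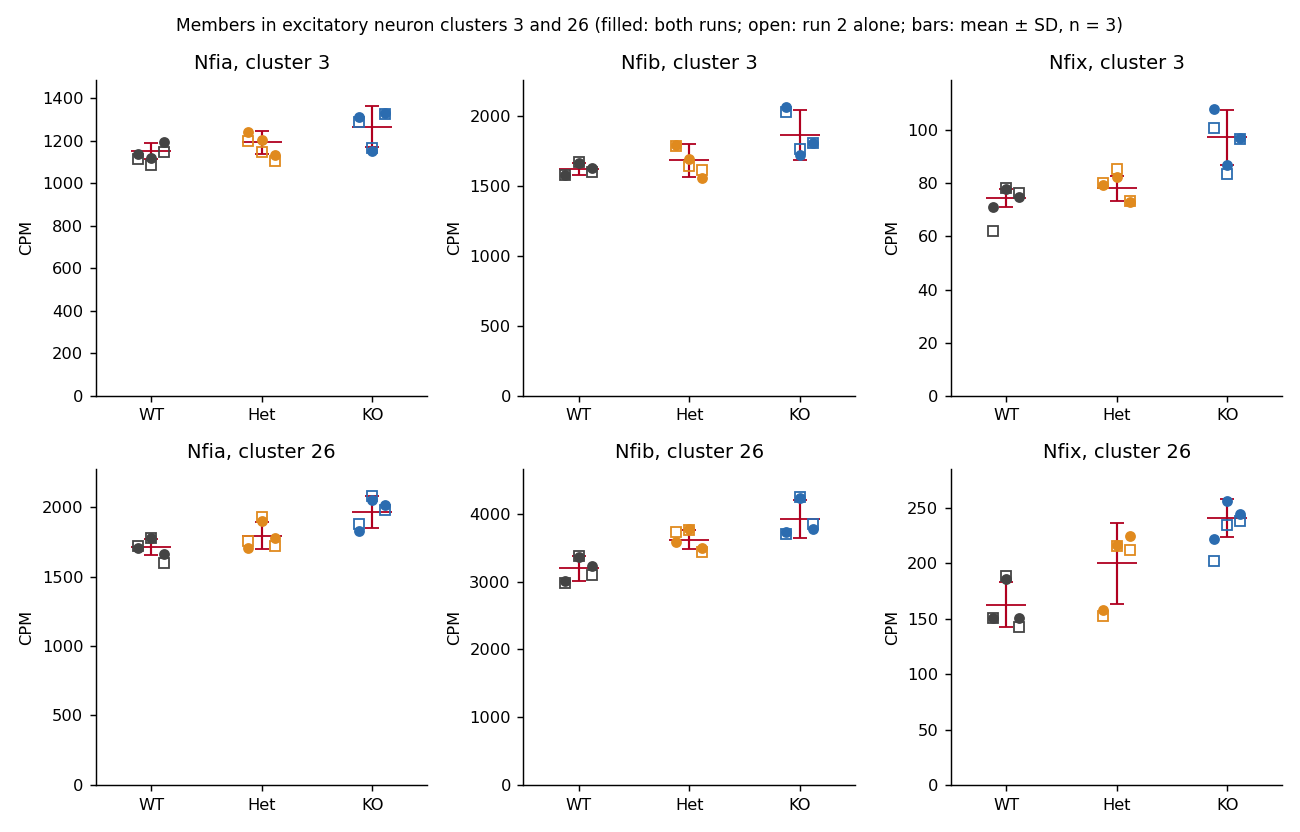
Nfia, Nfib and Nfix in clusters 3 and 26, in CPM per animal by genotype, with filled circles for both runs summed, open squares for run 2 alone, and the mean ± SD of 3 animals in red. In cluster 26 each KO animal lies above each WT animal for all 3 genes, and in cluster 3 for Nfib and Nfix, where the Het animals overlap the WT animals.

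The per-animal plot of clusters 3 and 26 shows that the Het animals overlapped the WT animals in each case but Nfib in cluster 26, where they lay above WT and reached the KO range. Other clusters gave calls only with the block or without the filter on low counts. In cluster 10, an inhibitory neuron-like cluster, Nfia was 184, 153 and 166 CPM in WT, 191, 164 and 173 in Het, and 271, 245 and 204 in KO, with a log2 fold change of 0.55 ± 0.12 (adjusted p = 0.317, with the block 0.0443, without the filter 0.00431) and 0.45 to 0.67 when single animals were left out. Summed excitatory intermediate progenitor markers ran from 84.7 to 95.9 CPM in WT nuclei of this cluster and from 95.2 to 115 in KO, and excitatory neuron markers from 638 to 728 and 649 to 802, and their part was not tested. With the block 0.0926% of genes were called in this cluster. In cluster 7, led by Maf and Nxph1, Nfia was 275, 180 and 178 CPM in WT and 464, 217 and 201 in KO (0.52 ± 0.25, adjusted p = 0.629, with the block 0.0177, beside 1.49% of genes, without the filter 4.90e-04). That difference rested on KO 1, without which it was 0.04. Summed excitatory neuron markers in cluster 7 ran from 1244 to 1442 CPM in WT and 1362 to 1885 in KO, and their part was not tested. Without the filter, but not with the block, Nfib was called in cluster 18 (0.36, adjusted p = 0.0486) and Nfia in cluster 19 (0.82, adjusted p = 8.58e-06), both inhibitory neuron-like. Nfib in cluster 18 was 379, 379 and 392 CPM in WT and 628, 395 and 406 in KO, and Nfia in cluster 19 was 171, 69.1 and 99.8 CPM in WT and 392, 77.3 and 135 in KO. Both rested on KO 1, without which, in the filtered fit, they were 0.09 and -0.11. In cluster 19 summed excitatory neuron markers ran from 519 to 714 CPM in WT and 635 to 1139 in KO. Radial glia markers there ran from 98.7 to 146 and 84.3 to 230, and inhibitory neuron markers from 6885 to 9850 and 5484 to 7491. The part of these markers was not tested.

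Het embryos, with 1 mutant allele, were compared with the same WT animals. By class, 0 of 30 member tests were called by edgeR, 0 by DESeq2 and 0 with the block, 0 had an unadjusted p under 0.05, and 0% of all genes were called in any class (0.00700% with the block). Estimates ranged from -0.63 to 0.28, and 21 of 30 were above 0. In excitatory neuron-like nuclei Nfia averaged 3071 ± 68.4 CPM in Het (0.09 ± 0.059) and Nfix 354 ± 15.3 (0.05 ± 0.10). By cluster, 0 of 109 were called, beside 3.26e-04% of all tests, and 1 was called with the block, beside 0.0104% of all tests. An unadjusted p under 0.05 was found for 9, and the share of all tests with such a p is not given. Without the filter on low counts Nfia, Nfib and Nfix of cluster 19 were called, 3 in all, beside 0.0541% of all tests. The call with the block was Nfia in cluster 19, an inhibitory neuron-like cluster, at 171, 69.1 and 99.8 CPM in WT and 502, 161 and 106 in Het (1.21 ± 0.55, with the block 1.09 and adjusted p = 0.0315). Without Het 1 it was 0.22, and Het 1 was also the source of all 719 nuclei of a diencephalic neuron-like cluster. Excitatory neuron markers there summed to 519 to 714 CPM in WT and 588 to 1385 in Het, and radial glia markers to 98.7 to 146 and 120 to 357. Their part was not tested.

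KO against Het by class gave 0 calls of 30 by edgeR and DESeq2, with 1 unadjusted p under 0.05 (0.0150% of all gene and class pairs called by edgeR). A test for any difference among the 3 genotypes gave 0 calls of 30, with 1 unadjusted p under 0.05 and a lowest adjusted p of 0.538, beside 0.143% of all pairs called. Without the filter on low counts 1 was called, beside 0.405%. These comparisons share their animals with those above.

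Genes known to act with the family or as its targets were counted from 3 lists. The partners and upstream regulators were Sox9, Zbtb20, Pou3f2, Pax6, Notch1, Rbpj and Olig2. The progenitor and glial targets were Hes1, Hes5, Ezh2, Insc, Bbx, Gfap, Fabp7, Slc1a3, Apcdd1, Mmd2, Zcchc24, Aqp4 and S100b, and the neuronal targets Cntn2, Efnb1, Cdh2 and Gabra6. In excitatory neuron-like nuclei 1 of 7 tested partners, 1 of 10 tested progenitor and glial targets and 0 of 3 tested neuronal targets were higher in KO, and 0 of these were lower, beside 1.72% of all genes of the class called in either direction. The median log2 fold changes were 0.06, 0.00 and 0.12, beside -0.01 for all genes of the class. The lists are not split by whether NFI proteins activate or repress a gene, so these medians do not measure NFI activity.

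The partner that rose was Zbtb20, a zinc finger transcription factor that acts in hippocampal and astroglial development. Its level was 418, 461 and 432 CPM in WT, 481, 486 and 538 in Het, and 727, 645 and 565 in KO, with no overlap between the genotypes (log2 fold change of KO against WT 0.59 ± 0.092, adjusted p = 0.00752). The target that rose was Bbx, an HMG-box gene known as a target of NFIX, at 129, 135 and 137 CPM in WT, 153, 174 and 148 in Het, and 226, 233 and 173 in KO (0.68 ± 0.11, adjusted p = 0.00861). Whether NFIX had a part in the level of Bbx was not tested. With the block, which called 7.49% of all genes of the class, Rbpj, the DNA-binding partner of Notch, was called too (0.30, adjusted p = 0.00101, without the block 0.0902), as was Cntn2, an axonal adhesion protein (0.28, adjusted p = 8.73e-04, without the block 0.414).

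Zbtb20 and Bbx were also the list genes called without the block in the clusters where members were called. The lists were chosen with earlier results of these data known. For KO against WT in cluster 26 they were 1 of 2 tested partners and 1 of 5 tested progenitor and glial targets, beside 3.12% of all genes. In cluster 3 they were 1 of 6 and 1 of 6, beside 1.25% of all genes. In cluster 26 Zbtb20 was 104, 102 and 93.9 CPM in WT, 121, 106 and 134 in Het, and 376, 278 and 287 in KO (1.67 ± 0.15, adjusted p = 1.75e-07). Bbx was 49.2, 53.9 and 39.3 CPM in WT, 63.7, 87.0 and 59.6 in Het, and 160, 169 and 152 in KO (1.78 ± 0.18, adjusted p = 1.13e-06). Both were also higher in KO than in Het in that cluster, by 1.39 ± 0.15 and 1.21 ± 0.18 (adjusted p = 7.17e-06 and 6.74e-04). In cluster 3 the log2 fold changes were 0.53 for Zbtb20 (adjusted p = 0.0166) and 0.86 for Bbx (adjusted p = 0.00463), and the block added Rbpj (0.43), Ezh2 (0.25), a histone methyltransferase of progenitors, and Cntn2 (0.47). The block called 4.35% of all genes of that cluster. Neither the number of list genes nor their direction was tested as a set.

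In inhibitory neuron-like nuclei no list gene was called without the block, and Zbtb20 (0.29, adjusted p = 0.0154), Rbpj (0.30, adjusted p = 0.0202) and Bbx (0.54, adjusted p = 0.00358) were called with it, all higher in KO, beside 0.761% of all genes called with the block. In Cajal-Retzius-like nuclei Zbtb20 (0.46, adjusted p = 0.0227) and Bbx (0.42, adjusted p = 0.0390) were called with the block alone, beside 0.934% of all genes (0.216% without it). In radial glia-like, both progenitor-like, choroid plexus and hem-like and microglia and macrophage-like nuclei no list gene was called either way (with the block 0.00609% of all genes were called in radial glia-like and 0.00771% in excitatory intermediate progenitor-like nuclei). There the most abundant in radial glia-like nuclei were Zbtb20 (2907 ± 135 CPM in WT, 3040 ± 102 in KO) and Notch1 (308 ± 19.1 and 286 ± 28.7) among the partners. Among the targets they were Ezh2 (675 ± 25.3 and 675 ± 22.9), Slc1a3, an astroglial glutamate transporter (613 ± 93.5 and 565 ± 135), Cdh2 (1769 ± 267 and 1802 ± 260) and Efnb1 (246 ± 57.7 and 229 ± 71.0). Late glial targets were near the floor at E14, with Gfap at 0.322 ± 0.227 CPM in radial glia-like nuclei. Het against WT gave 0 calls for any list gene in any of the 8 classes, with or without the block.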

How the data were processed

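Nuclei of dissected, flash-frozen E14 forebrain were fixed and barcoded by combinatorial indexing (ScaleBio), in which nuclei take up barcodes over rounds of splitting and pooling. The authors mapped reads to mm10. The deposited matrices hold expected counts of UMIs per gene and nucleus, 6.70 to 8.71% of entries not whole. The annotation release, use of strand and origin of the fractions are not stated by the sources used here. The submitters' processing notes name Seurat 4.3.0, DESeq2 1.38.3 and Scanpy 1.12.0. The files hold no per-sample columns other than those used.

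Of 261143 barcodes, 200811 lay within the study's stated limits: 800 to 6000 UMIs, 300 to 3000 genes, no more than 1% of UMIs mitochondrial, and log(genes) at least 0.9 times log(UMIs). The study gives a larger number of nuclei than these limits leave. The doublet caller (Scrublet in scanpy 1.11.5) marked under 0.5% in 4 libraries, so the 5% of barcodes with the highest scores were removed from each library, which left 194373 nuclei (37988 in run 1, 156385 in run 2). Barcodes shared between libraries (155 within an animal, 1710 between animals) were kept as separate nuclei. By Xist, 1 of the 9 animals stood apart (over 100 CPM), namely WT 3. No Het or KO animal was above 100 CPM, although the study describes mixed sexes in each genotype. A part of sex in the differences between genotypes was not tested.

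Log-normalised counts of 3000 variable genes, which left out the members, Myt1l, Xist, Tsix, Y-linked and mitochondrial genes, were reduced to 50 principal components. A graph of 20 neighbours clustered by the Leiden method (igraph 0.11.9, resolution 1) gave 31 clusters. A cluster was named from at least 3 detected markers (10 CPM, 1.5-fold over other nuclei) where the detected share of a marker list and its mean fold pointed to the same class, or otherwise after the class with the most markers (at least 2) among its 10 leading genes, and where no other class had more markers among those genes. Both inhibitory progenitor-like clusters, 13 and 24, took their name by the leading genes and the fold, whereas the share of markers pointed to inhibitory neurons. Names need not match the study's. Nuclei in unnamed clusters were 17.3% of the total. The rule that kept cluster 14 out of the Cajal-Retzius-like class (markers under 0.2 of the class's highest cluster) was set after seeing the data. Cluster 14 held 2.77 ± 1.28% of nuclei in WT, 3.43 ± 1.72% in Het and 2.65 ± 0.959% in KO. All 719 diencephalic neuron-like nuclei came from Het 1 and were not tested.

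Counts were summed over both runs per animal and class or cluster, rounded, and tested with edgeR 4.0.16 (filterByExpr, TMM, quasi-likelihood F-test, two-sided) on genotype over all 9 animals, in classes and clusters with at least 20 nuclei per animal. CPM is each count per 1000000 UMIs of its class and animal. The difference between neuron classes used limma 3.58.1 on log2(CPM + 1). On counts simulated for KO against WT in excitatory neuron-like nuclei (18835 genes), edgeR recovered 97% of 100 genes at a true log2 fold change of 0.5 and 100% of 100 at 1.0, with 9 false calls. The simulation gave all genes the same dispersion, had no pairing by replicate number and changed only genes above 20 CPM. It held no folds as small as the members' estimates in that class, so it does not give the power to detect those. Likeness between genes was Pearson r of log2(CPM + 1) over clusters, among genes that averaged 20 CPM or more, and the ranking left out the members. Alternatives were DESeq2 1.42.0, DESeq2 size factors, no expression filter, only the 6 animals compared, the replicate block, each run alone, other nucleus limits and clustering, fixed cluster weights, leaving out each animal and, chosen after seeing the data, an Nfia body begun at the RefSeq start.

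Same-numbered animals resembled one another across genotypes, least so for replicate 3. Deviations from the genotype means correlated at 0.26 to 0.71 between same-numbered animals in excitatory and 0.26 to 0.66 in inhibitory neuron-like nuclei (9 pairs each), and at -0.52 to 0.18 and -0.58 to 0.08 between others (18 pairs each). Pairs of replicate 3 reached 0.26 to 0.37 in excitatory neuron-like nuclei. Each genotype was centred on its own 3 animals, so correlation between like numbers in part forces that between unlike numbers down. The numbers come from the sample titles, and the study names 3 litters of Het crosses. Whether a number marks a litter is not given.

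The text names the 4 members in each class, list genes that were called or otherwise the 2 most abundant of a list, and the 3 genes outside the family most like each member. Members, lists and markers were chosen with earlier results of these data known. Gene positions and lengths are from GENCODE vM21, and start sites from RefSeq GRCm38.p6.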

Additional observations from a re-analysis of the deposited data

How the results depend on the processing

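The 0 calls of members by class for KO against WT became 2 without the filter on low counts (Nfix in excitatory and Nfia in inhibitory neuron-like nuclei) and 1 with the replicate block, and the test of any genotype gave 1 without the filter. They stayed at 0 under the other alternatives run and when each animal was left out. A run alone was fitted only where every animal had at least 20 nuclei in it. That left out Cajal-Retzius-like nuclei in run 1 and microglia and macrophage-like nuclei in both runs. By cluster, the 3 calls for KO against WT (beside 0.283% of all tests) became 6 without the filter (0.262%) and 7 with the replicate block (0.941%). They became 1 with DESeq2, 1 with only the 6 animals compared and 1 in run 2 alone, and 0 to 3 when each animal was left out. Run 1 alone gave 0, but cluster 26, with as few as 6 nuclei in an animal there, was not fitted. For DESeq2, the 6 animals, single runs and omissions the share of all tests called is not given. Whether those changes are particular to the members therefore cannot be told. Het against WT by cluster gave 3 calls without the filter and 1 with the replicate block. The block changed no call of a member beyond those given. Why the filter changed the calls was not tested.

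The log2 ratio of excitatory to inhibitory neuron-like nuclei, 3.38 for Nfia, 2.95 for Nfib and 3.25 for Nfix, was 3.13 and 2.74 for Nfia and Nfib in run 1 alone, and 3.11, 2.78 and 2.90 for these 3 without doublet removal, all in the same direction. The cause was not tested. The log2 ratio of Nfib to Nfia per kb turned from negative to positive with the longer Nfia body, at 0.36 (radial glia), 0.35 (excitatory intermediate progenitors), 0.27 (inhibitory progenitors), 0.26 (choroid plexus and hem) and 0.10 (microglia and macrophages), an alternative chosen after seeing the data.

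Uncalled log2 fold changes of KO against WT near 0 changed sign. With each animal left out, Nfic ran from -0.14 to 0.02 in radial glia-like, -0.15 to 0.03 in excitatory neuron-like, -0.10 to 0.08 in inhibitory progenitor-like, -0.14 to 0.06 in inhibitory neuron-like and -0.36 to 0.15 in Cajal-Retzius-like nuclei. Nfix ran from -0.01 to 0.12 in radial glia-like, -0.14 to 0.25 in inhibitory neuron-like and -0.07 to 0.03 in choroid plexus and hem-like nuclei, and Nfib from -0.01 to 0.21 in Cajal-Retzius-like nuclei. Nfic in inhibitory progenitor-like nuclei was 0.04 without doublet removal, 0.06 without upper limits, 0.12 at resolution 2, 0.15 in run 2 alone and 0.01 with fixed cluster weights. Nfib there was -0.07 in run 1 alone, as was Nfix in inhibitory neuron-like nuclei. Nfic in Cajal-Retzius-like nuclei was 0.29 in run 2 alone. In choroid plexus and hem-like nuclei Nfia was -0.07 and Nfib -0.00 without doublet removal, and Nfix 0.00 without the filter and 0.21 in run 1 alone. Depth limits Nfic and Nfix in microglia and macrophage-like nuclei, with 3 to 8 and 1 to 10 UMIs per animal, and Nfic in cluster 26, with 2 to 13.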
